A study of Mus musculus with 3 samples.

Results

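The 10 genes described here encode subunits of the nicotinic acetylcholine receptor: Chrna2, Chrna3, Chrna4, Chrna5, Chrna6, Chrna7, Chrnb1, Chrnb2, Chrnb3 and Chrnb4. They are set by gene name, as members of 1 family, and no level or fold change enters that rule, although earlier results of these data were known when the family was picked. They stand among 31064 genes counted in 1 library and 32285 in the other 2. The study sequenced RNA of single cells from the ganglia of the mouse heart atria, the clusters of neurons that relay vagal input to the heart. It has 3 libraries, each 1 sample without a replicate: whole atria with pooled ganglia from mice of 2 months (mixed), anterior ganglia from mice of 3 months, and posterior ganglia from mice of 4 months. In all 3 groups the genotype was Baf53b-cre;lox-GFP, both sexes were used, and the protocol names 10 mice. Baf53b is the neuronal gene now called Actl6b, so that Cre, and with it the green fluorescent protein used to sort the cells, was driven in neurons. Pooling of mice, region, age and library cannot be told apart, and no value from these data tests one region against another.

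The files held 2829, 2256 and 3276 cell barcodes in the mixed, anterior and posterior library, the order in which values are given throughout. Neurons were taken as barcodes with at least 10000 UMIs (unique molecular identifiers, each standing for 1 captured RNA molecule) and a UMI of each of the neuronal genes Snap25, Prph and Stmn2, which left 1998, 1315 and 1447. Their median depth was 57062.5, 39854 and 57151 UMIs, and the 8 neuronal markers, Actl6b among them, were each found in at least 93.3%, 87.6% and 86.2% of them. RNA of satellite glia was present too, with Apoe the highest at 6.55, 5.84 and 5.08 UMIs per 10000. At most 3 barcode sequences were shared by any 2 libraries, and the gated neurons shared 1 in all.

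Nicotinic receptors are pentameric cation channels that acetylcholine opens directly, and in autonomic ganglia they carry the fast signal from the preganglionic axon to the ganglion cell. The type best known from ganglia is built from α3 and β4 subunits, the products of Chrna3 and Chrnb4, which together form the acetylcholine binding sites. The α5 subunit (Chrna5) joins such receptors as an accessory subunit that binds no acetylcholine at its own face, β2 (Chrnb2) can stand in for β4, and α7 (Chrna7) forms channels of a single subunit type with a high calcium permeability. β1 (Chrnb1) belongs to the muscle endplate receptor, and α2, α4, α6 and β3 are known mainly from receptors of the brain.

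Chrna5, Chrna3 and Chrnb4 lie side by side in the mouse genome. In the GRCm38 build with the GENCODE annotation they occupy chr9:54980880-55007779 on the plus strand, chr9:55010111-55026562 on the minus strand and chr9:55028154-55048779 on the minus strand. A gap of 2331 bases separates Chrna5 from Chrna3, and 1591 bases separate Chrna3 from Chrnb4. Chrna7 lies on chromosome 7 (63098692 to 63212569, minus strand) and Chrnb2 on chromosome 3 (89746195 to 89764632, minus strand), where the annotation places Adar on the opposite strand over part of it. An antisense gene, Gm47877, overlaps Chrnb4. Gm44741, annotated on the same strand, overlaps Chrna7, and the part of these overlaps in the counts was not tested.

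The start regions of the 3 neighbours and of Chrna7 are shown because these genes had the highest levels, or the largest differences between neuron classes, in what follows. Each runs from 250 bases before to 50 bases after the transcript start, on the strand of the gene, from RefSeq in build GRCm38.p6; capitals mark GGGCGG on either strand (CCGCCC on the other), the core of a GC box, and CAGCTG, an E-box. Of the 10 genes, 7 had an entry.
Chrna3, chr9:55026513-55026812, minus strand: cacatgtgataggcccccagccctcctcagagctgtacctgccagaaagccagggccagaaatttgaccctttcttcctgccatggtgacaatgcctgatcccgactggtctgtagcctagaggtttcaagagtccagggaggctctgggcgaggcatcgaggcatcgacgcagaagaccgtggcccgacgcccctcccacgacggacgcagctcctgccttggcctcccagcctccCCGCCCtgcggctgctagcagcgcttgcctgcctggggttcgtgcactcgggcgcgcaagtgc
Chrnb4, chr9:55048495-55048794, minus strand: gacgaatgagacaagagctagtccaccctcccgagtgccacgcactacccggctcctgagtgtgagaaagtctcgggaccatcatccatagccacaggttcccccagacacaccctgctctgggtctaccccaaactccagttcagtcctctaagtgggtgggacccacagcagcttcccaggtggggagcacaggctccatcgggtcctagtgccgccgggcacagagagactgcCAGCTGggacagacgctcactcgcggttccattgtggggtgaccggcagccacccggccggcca
Chrna5, upstream start, chr9:54980630-54980929, plus strand: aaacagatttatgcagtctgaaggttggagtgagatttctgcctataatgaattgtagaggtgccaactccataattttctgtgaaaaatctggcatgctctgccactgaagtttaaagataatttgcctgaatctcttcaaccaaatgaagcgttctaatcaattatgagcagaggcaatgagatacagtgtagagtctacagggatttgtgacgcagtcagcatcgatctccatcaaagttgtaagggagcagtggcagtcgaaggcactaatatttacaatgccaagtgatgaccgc
Chrna5, downstream start, chr9:54981238-54981537, plus strand: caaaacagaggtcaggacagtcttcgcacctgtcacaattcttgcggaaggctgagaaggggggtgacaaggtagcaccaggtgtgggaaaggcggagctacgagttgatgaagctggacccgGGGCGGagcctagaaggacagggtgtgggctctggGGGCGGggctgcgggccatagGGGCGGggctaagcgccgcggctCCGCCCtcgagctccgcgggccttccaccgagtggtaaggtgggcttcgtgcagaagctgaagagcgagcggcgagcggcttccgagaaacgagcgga
Chrna7, chr7:63212477-63212776, minus strand: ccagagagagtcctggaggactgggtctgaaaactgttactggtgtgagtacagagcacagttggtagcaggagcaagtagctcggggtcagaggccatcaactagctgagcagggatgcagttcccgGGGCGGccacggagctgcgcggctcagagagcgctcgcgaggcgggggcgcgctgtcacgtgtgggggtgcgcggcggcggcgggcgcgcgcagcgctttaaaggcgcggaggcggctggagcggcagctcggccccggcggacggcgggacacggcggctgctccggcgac
GGGCGG stood in 35.7% of 32851 mouse start regions of this length and CAGCTG in 16.3%. It occurred 1 time each in Chrna3 and Chrna7 and 4 times at the downstream start of Chrna5, and Chrnb4 held 1 CAGCTG. These are letter matches, and binding at them was not measured here. GC content was 64.3% in Chrna3, 63.0% in Chrnb4 and 70.0% in Chrna7, above the 52.7% median of such regions, while the upstream start of Chrna5 had 41.3% and its downstream start 65.0%.

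The ganglionic α subunit gene Chrna3 was the most abundant of the family in neurons. Its level, the UMIs of the gene per 10000 UMIs of all genes summed over the neurons of a library, was 2.21, 2.47 and 2.52 in these libraries (mean 2.40 ± 0.170, SD, n = 3 libraries of different make). A Chrna3 UMI was found in 99.6%, 98.6% and 95.8% of neurons. Since these UMIs mark 1 end of each RNA, levels were compared between genes without dividing by gene length.

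Chrnb4, the β partner, followed at 0.491, 0.676 and 0.725 UMIs per 10000 and was detected in 89.8%, 84.6% and 88.8% of neurons. Chrna3 UMIs outnumbered those of Chrnb4 4.50 to 1 (95% interval 4.37 to 4.63) in mixed neurons, 3.66 to 1 in anterior and 3.48 to 1 in posterior neurons (3.38 to 3.59). These intervals, like all those for single libraries here, cover counting error only. The α3 message thus exceeded the β4 message in each library, with the largest excess in the mixed library.

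The accessory subunit gene Chrna5 stood at 0.276, 0.198 and 0.218 UMIs per 10000, and the β2 gene Chrnb2 at 0.0960, 0.161 and 0.173. The mixed library was the highest of the 3 for Chrna5 and the lowest for Chrnb2, Chrnb4 and Chrna3. Chrna5 outnumbered Chrnb2 2.88 to 1 there (2.69 to 3.09), against 1.23 to 1 (1.12 to 1.35) for anterior and 1.26 to 1 (1.17 to 1.35) for posterior neurons. The file headers name Cell Ranger 3.1.0 for the mixed and 6.1.2 for the 2 regional libraries, whose gene lists differ too, and the part of this in those ratios was not tested.

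Chrna7 was rare, at 0.0132, 0.0185 and 0.0163 UMIs per 10000, with a UMI in 6.66%, 6.01% and 7.12% of neurons. The order Chrna3, Chrnb4, Chrna5, Chrnb2, Chrna7 was the same in 3 of 3 libraries, and each neighbouring pair in it differed beyond counting error in each library. The muscle subunit gene Chrnb1 gave 16, 6 and 20 UMIs in all neurons of a library.

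The remaining 4 genes were at or near the limit of detection. Chrna2 gave 4, 1 and 0 UMIs, Chrna4 gave 0, 0 and 2, and Chrna6 and Chrnb3 gave none in any of the 4760 neurons. A count of 0 allows up to 0.000258, 0.000578 and 0.000372 UMIs per 10000 in the 3 libraries. Of 6 further subunit genes of the family, Chrna1 reached 12, 9 and 7 UMIs, and Chrna9, Chrna10, Chrnd, Chrne and Chrng had at most 2 in any library.

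**Figure D1:**
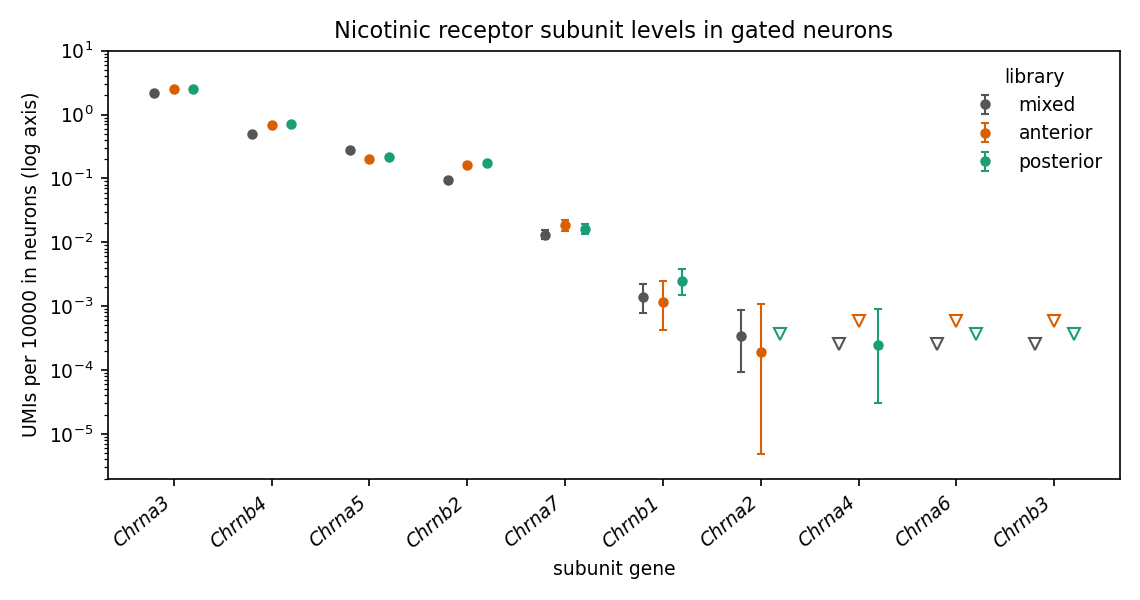
Level of each subunit gene in neurons, in UMIs per 10000 on a log axis, for the 3 libraries; points are summed levels with 95% Poisson intervals, and open triangles mark the limit that a count of 0 allows. Chrna3 lies between 2.21 and 2.52 and the order of the 5 leading genes is the same in 3 libraries, while Chrna2, Chrna4, Chrna6 and Chrnb3 lie at or near the limit.

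Depth shapes how often a subunit is seen in a cell, so each neuron was also thinned at random to 10000 UMIs. Chrna3 was then found in 87.4%, 84.4% and 82.3% of neurons, Chrnb4 in 38.2%, 47.7% and 48.9%, Chrna5 in 24.2%, 17.6% and 18.2%, and Chrnb2 in 9.66%, 14.1% and 16.0%. At full depth 29.5%, 23.0% and 37.9% of neurons held a UMI of all 4 of these genes, and 48.9%, 39.2% and 37.2% held 3 of them.

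The share of neurons with both the α3 and the β4 message was close to the product of the single shares. That measure has little room to differ, because Chrna3 was found in most thinned neurons. Chrnb4 was found in 38.5%, 47.8% and 50.6% of thinned neurons with Chrna3. Among those without Chrna3 it was found in 35.9%, 46.8% and 40.6%, so the gap was widest in the posterior library. Both messages were found in 33.7% (31.6 to 35.8), 40.4% (37.7 to 43.1) and 41.7% (39.1 to 44.3) of thinned neurons. The products of the single shares were 33.4%, 40.2% and 40.2%. Chrna5 and Chrnb2 coincided in 2.20%, 2.81% and 3.87%, which is 0.941, 1.13 and 1.33 times the product. Over neurons at full depth, the Spearman correlation of the Chrna3 and Chrnb4 levels was 0.153, 0.331 and 0.416, as a description of cells that share a library and differ in depth. Chrna5 and Chrna3 correlated at 0.130, 0.175 and 0.353, so the posterior library had the largest value for both pairs.

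A few gated neurons lacked Chrna3. There were 7, 18 and 61 of them, with median depths of 17911, 16860 and 14050 UMIs against 57125, 39996 and 58480 in the others. In the posterior library these cells held 3.90 Snap25 UMIs per 10000 against 12.9 in the rest, and 47 of them had none of Chrna3, Chrnb4, Chrna5 and Chrnb2. In the anterior library their Snap25 level, 11.2, was no lower than that of the rest, while 5 glial marker genes summed to 15.5 UMIs per 10000 against 2.22. In the mixed library mitochondrial genes took 11.9% of their UMIs against 4.23%, and the part of glial RNA and RNA quality in the missing Chrna3 was not tested.

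Subunit levels differed with Malat1, a long noncoding RNA retained in the nucleus, among anterior and posterior neurons. The neurons of each library were split into 3 sets of near-equal size by their Malat1 level. Chrna3 stood at 1.76, 2.43 and 3.37 UMIs per 10000 in the lowest, middle and highest set of the anterior library. The same sets gave 1.74, 2.35 and 3.82 for posterior and 2.17, 2.20 and 2.28 for mixed neurons. The highest set thus held 1.92 times (1.83 to 2.00) the Chrna3 level of the lowest among anterior, 2.19 times (2.12 to 2.27) among posterior and 1.05 times (1.02 to 1.09) among mixed neurons.

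Other genes moved as well. All 5 measurable subunits were at least 1.5-fold higher in the highest set of both regional libraries, as were 43.3% of genes for anterior and 43.4% for posterior neurons. In the mixed library Chrna7 alone passed that fold, beside 26.5% of genes. The ratio for Chrnb4, 1.53 and 1.51 in the regional libraries, was near the median of all genes there, 1.40 and 1.39, while 20.4% and 14.0% of genes had a ratio as high as that of Chrna3. Chrna7 had the steepest ratio of the 5, at 2.81, 3.07 and 4.07, which 0.863%, 2.35% and 2.14% of genes matched. Malat1-rich neurons were also shallower, with median depths of 46796.5, 35036 and 44190 UMIs against 65376, 40484.5 and 60844.5 in the lowest set, and the part of RNA quality or depth in these ratios was not tested.

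**Figure D2:**
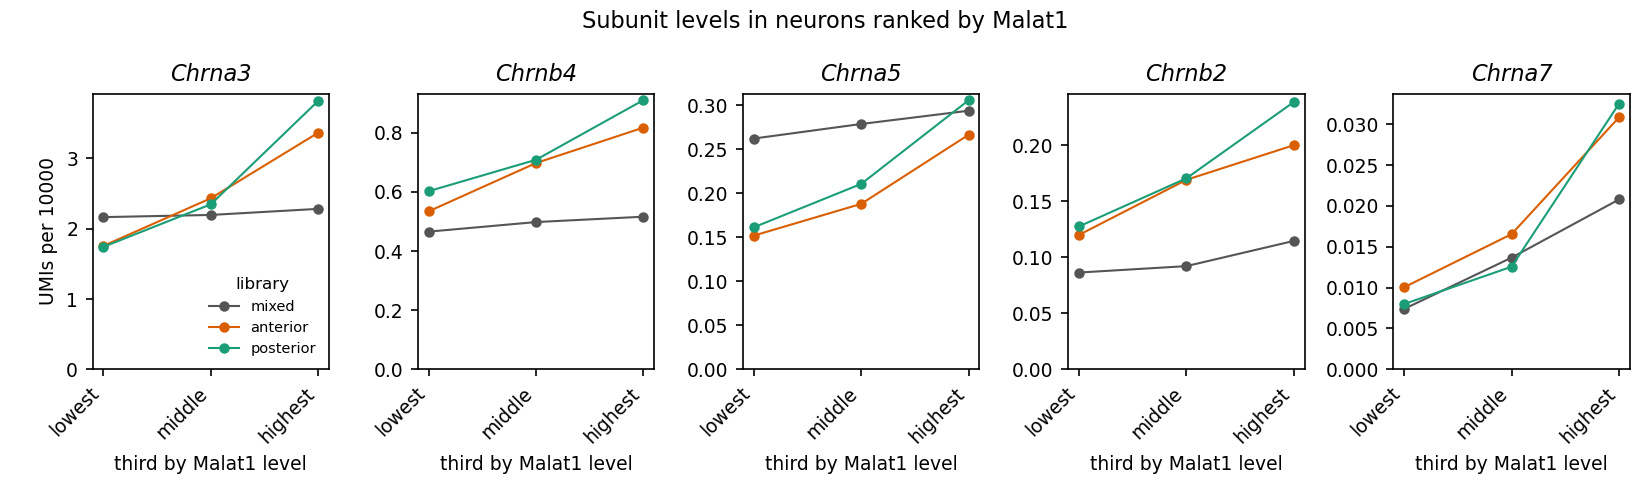
Subunit levels, in UMIs per 10000 on linear axes from 0, in neurons of each library split into 3 sets of near-equal size by their Malat1 level. Chrna3 goes from 1.76 to 3.37 for anterior and from 1.74 to 3.82 for posterior neurons and stays between 2.17 and 2.28 for mixed neurons.

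Which receptor subunits distinguish kinds of atrial neuron was examined in classes set by 3 genes: Ddah1, an enzyme that degrades inhibitors of nitric oxide synthase, Nos1, the neuronal nitric oxide synthase, and Edn3, the peptide endothelin 3. A neuron joined a class with at least 1 UMI per 10000 and at least 3 UMIs of its gene and not of the other 2. This gave 410, 148 and 527 Ddah1 neurons, 52, 81 and 53 Nos1 neurons, 82, 113 and 64 Edn3 neurons, and 1448, 962 and 778 with none of the 3. A cut on 1 gene makes a range and not a cell type: 73, 79 and 45 neurons lay just under the Edn3 cut, between 0.5 and 1 UMI per 10000. Npy, the neuropeptide Y gene, was not used in the cut and stood at 5.04, 8.37 and 5.70 UMIs per 10000 in Ddah1 neurons and 82.2, 70.8 and 75.4 in Nos1 neurons.

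UMIs were summed per library and class, and each class was set against the mean of the other 3 with edgeR's quasi-likelihood test, library as a block, and Benjamini-Hochberg adjustment over 12024 genes. Of the 10 subunit genes 5 had enough UMIs to be tested: Chrna3, Chrna5, Chrna7, Chrnb2 and Chrnb4. The 3 libraries are separate preparations. With library as a block, the p-values weigh a class difference against how much class differences vary from library to library. The spread in level between libraries is taken out by the block.

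Nos1 neurons carried the most Chrna7. Its level was 0.0825, 0.132 and 0.0996 UMIs per 10000 in Nos1 neurons, 0.0148, 0.0127 and 0.0175 in neurons with none of the 3 genes, 0.00282, 0.00645 and 0.00562 in Ddah1 neurons, and 0.00744, 0.0170 and 0.0257 in Edn3 neurons. The 3 Nos1 levels were each the highest of the 4 classes in their library. These levels rest on 21, 34 and 26 UMIs, and a UMI was seen in 30.8%, 28.4% and 26.4% of Nos1 neurons against 7.46%, 4.37% and 8.10% of those with none of the 3 genes. After thinning to 10000 UMIs the shares were 15.4%, 11.1% and 7.55% against 1.86%, 1.77% and 1.80%. Nos1 neurons were shallower, with median depths of 46976.5, 33762 and 50422 UMIs against 55845, 39576.5 and 54456. Over all neurons split into 3 sets by depth, Chrna7 was at 0.0219, 0.0275 and 0.0349 UMIs per 10000 in the shallowest set of each library and at 0.00718, 0.00981 and 0.00911 in the deepest, and the part of depth in the class difference was not tested. The log2 fold change was 3.31 (SE 0.27, edgeR adjusted p = 4.46e-08), and all 16 alternative settings kept the call. Malat1 was at 158, 140 and 157 UMIs per 10000 in Nos1 neurons, 137, 112 and 153 in those with none of the 3 genes and 125, 84.3 and 95.6 in Ddah1 neurons. With the most Malat1-rich neurons of each library left out, 1 in 3, the Chrna7 log2 fold change in Nos1 neurons was 3.29 (edgeR adjusted p = 1.23e-06).

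The α7 message was not confined to that class. Of the 133, 79 and 103 neurons with a Chrna7 UMI, 16, 23 and 14 were Nos1 neurons and 81.2%, 53.2% and 61.2% belonged to the class with none of the 3 genes. Within that class, neurons with a Chrna7 UMI also held a Nos1 UMI in 9.26%, 7.14% and 14.3% of cases, and those without held one in 4.10%, 5.98% and 9.93%. Their median depths were 55890.5, 39568.5 and 58283 UMIs against 55821, 39576.5 and 54164, and their Malat1 level was 157, 148 and 222 UMIs per 10000 against 136, 110 and 147. A UMI of Ly6h, another gene high in Nos1 neurons, was found in 4.63%, 19.0% and 22.2% against 8.06%, 9.67% and 9.79%, lower in the mixed and higher in the regional libraries.

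Nos1 neurons held less of the accessory subunit message. Chrna5 was at 0.192, 0.128 and 0.130 UMIs per 10000 there against 0.277, 0.198 and 0.215 in neurons with none of the 3 genes, and the Nos1 class was the lowest of the 4 in each library. Its log2 fold change fell by 0.70 (SE 0.12, edgeR adjusted p = 0.000537), and 15 of 16 alternatives kept the call. With these 2 genes, 1 of the 5 tested subunits rose and 1 fell in Nos1 neurons, beside 8.23% of all genes higher and 7.49% lower. Chrna3 had a log2 fold change of -0.06 (SE 0.09), Chrnb4 of -0.02 (SE 0.09) and Chrnb2 of 0.12 (SE 0.15), with edgeR adjusted p of 0.723, 0.940 and 0.649.

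**Figure D3:**
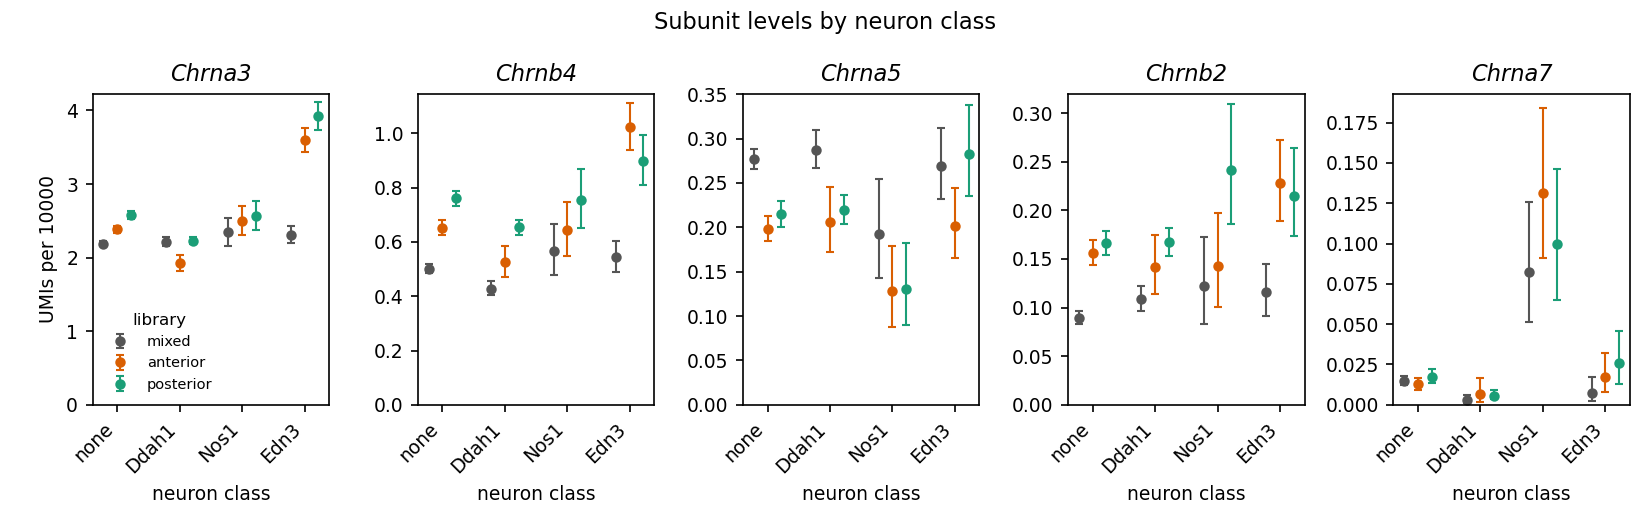
Levels of the 5 measurable subunits, in UMIs per 10000 on linear axes from 0, by neuron class and library, with 95% Poisson intervals. The Nos1 class has the highest Chrna7 (0.0825 to 0.132) and the lowest Chrna5 (0.128 to 0.192), and Edn3 neurons have the highest Chrna3 in the anterior and posterior libraries.

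Ddah1 neurons stood at the other end for α7. Chrna7 in them rested on 7, 4 and 18 UMIs, and its level there was the lowest of the 4 classes in each library. Its log2 fold change was -2.64 (SE 0.31, edgeR adjusted p = 2.11e-06), with the call kept in all 16 alternatives. Ddah1 neurons were deeper, with median depths of 60817, 41541.5 and 60085 UMIs against 55845, 39576.5 and 54456 in neurons with none of the 3 genes. Chrna7 was lower in deeper neurons, as given above, and the part of depth in this class difference was not tested either. Against the class with none of the 3 genes alone, the ratio was 0.191 (0.0753 to 0.406) for mixed, 0.509 (0.133 to 1.39) for anterior and 0.322 (0.180 to 0.546) for posterior neurons.

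Both ganglionic subunit genes were slightly lower in Ddah1 neurons. Chrnb4 was at 0.428, 0.525 and 0.654 UMIs per 10000 against 0.502, 0.653 and 0.761 in neurons with none of the 3 genes, the lowest of the 4 classes in 3 of 3 libraries, although the libraries overlap. Its log2 fold change was -0.34 (SE 0.08, edgeR adjusted p = 0.00258). Chrna3 was at 2.21, 1.93 and 2.23 against 2.19, 2.38 and 2.58, lower in the anterior and posterior libraries and level in the mixed library. Its log2 fold change was -0.29 (SE 0.09, edgeR adjusted p = 0.0206), and the adjusted p was 0.325 without the anterior and 0.223 without the posterior library.

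Chrna5 had a log2 fold change of 0.23 in Ddah1 neurons (SE 0.08, edgeR adjusted p = 0.0302). Against the class with none of the 3 genes its ratio was 1.04, 1.04 and 1.02, and the edgeR adjusted p for that comparison, which was chosen after the data were seen, was 0.666. The low Chrna5 of the Nos1 class enters the mean of the other classes. In all, 3 of the 5 tested subunits were called lower and 1 higher in Ddah1 neurons, beside 13.4% of all genes lower and 13.5% higher. Leaving out either regional library left 2 subunits called, Chrna7 and Chrnb4.

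Edn3 neurons had the most α3 message in the regional libraries. Chrna3 was at 2.31, 3.60 and 3.92 UMIs per 10000 in them, against 2.19, 2.38 and 2.58 in neurons with none of the 3 genes, so the classes lay close in the mixed library and apart in the other 2. The ratio was 1.06 (1.00 to 1.11), 1.51 (1.44 to 1.59) and 1.52 (1.44 to 1.60). The log2 fold change was 0.43 (SE 0.09, edgeR adjusted p = 0.00109), and the adjusted p was 0.0891 without the anterior library, 0.0782 without the posterior and 0.0552 against the class with none of the 3 genes. Edn3 neurons were deeper, with median depths of 83797, 47573 and 66580 UMIs against 55845, 39576.5 and 54456. Over all neurons split by depth, Chrna3 was at 2.38, 3.46 and 3.64 in the shallowest set and 2.16, 2.33 and 2.32 in the deepest. The part of depth in the class difference was not tested.

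Chrnb4 in Edn3 neurons was at 0.544, 1.02 and 0.898 UMIs per 10000 against 0.502, 0.653 and 0.761. Its log2 fold change was 0.38 (SE 0.08, edgeR adjusted p = 0.00174), with an adjusted p of 0.154 without the anterior library and 0.0771 against the class with none of the 3 genes. Chrna5, at 0.269, 0.202 and 0.283 UMIs per 10000, had a log2 fold change of 0.28 (SE 0.09, edgeR adjusted p = 0.0276). Its ratio to the class with none of the 3 genes was 0.973, 1.02 and 1.32, with an adjusted p of 0.763. Chrnb2 was at 0.116, 0.228 and 0.215 UMIs per 10000 and did not pass the test, at a log2 fold change of 0.28 (SE 0.12, edgeR adjusted p = 0.0739).

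Together 3 of the 5 tested subunits were called higher in Edn3 neurons and 0 lower, beside 18.3% of all genes higher and 13.0% lower. Without the anterior library the calls came to 0, and without the posterior library to 1, Chrnb4. Malat1 in Edn3 neurons was at 94.2, 106 and 172 UMIs per 10000, against 137, 112 and 153 in neurons with none of the 3 genes. The 5 glial marker genes summed to 3.07, 1.54 and 0.442 UMIs per 10000 against 4.41, 2.47 and 2.10, lower in Edn3 neurons of each library. With neurons holding 1 or more of these glial UMIs per 10000 left out, the calls on Chrna3, Chrnb4 and Chrna5 were kept. The part of glial RNA in the size of the subunit differences was not tested. With the Malat1-rich neurons left out, a setting also added after the data were seen, the Chrna3 log2 fold change was 0.38 (edgeR adjusted p = 0.00129) and that of Chrnb4 0.40 (edgeR adjusted p = 0.00271). The call on Chrna5 was lost there, at an adjusted p of 0.275. Without the library as a block, the Chrna7 calls in Ddah1 and Nos1 neurons were the 2 subunit calls that remained in the 3 contrasts.

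**Figure D4:**
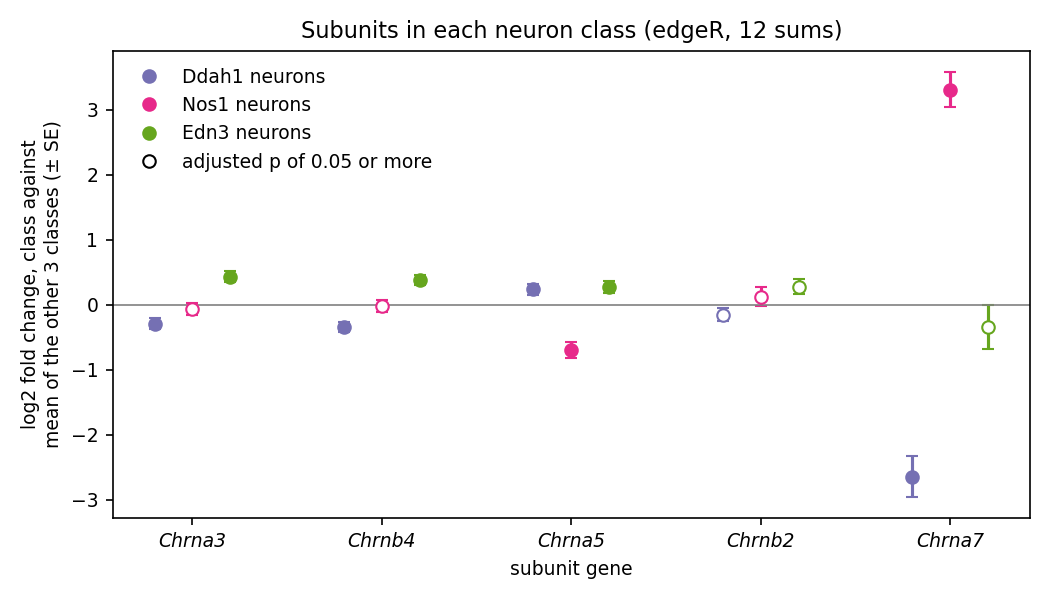
Log2 fold change (± SE) of the 5 tested subunits in each neuron class against the mean of the other 3 classes, from edgeR on 12 sums; open points have an adjusted p of 0.05 or more. Chrna7 spans from -2.64 in Ddah1 to 3.31 in Nos1 neurons, and the other 4 genes lie within 0.70 of 0 on either side.

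The proteins that build, accompany and tune these receptors were followed with a list of 12 genes, of which 7 could be tested. The list holds receptor chaperones, Ly6-family genes and the neuritin gene Nrn1. Tmem35a, which encodes NACHO, a chaperone of α7 and other subunits, was at 0.141, 0.0310 and 0.134 UMIs per 10000 in Nos1 neurons, against 0.392, 0.318 and 0.345 in neurons with none of the 3 genes. Ddah1 neurons held 0.970, 0.508 and 0.710 and Edn3 neurons 0.544, 0.588 and 0.706. The Nos1 class was lowest in 3 of 3 libraries. The log2 fold change of Tmem35a was -2.43 in Nos1 (SE 0.27, edgeR adjusted p = 0.000103), 1.41 in Ddah1 (SE 0.15, edgeR adjusted p = 4.30e-05) and 1.01 in Edn3 neurons (SE 0.17, edgeR adjusted p = 0.00154).

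Ly6h, a membrane-anchored protein known to bind α7 and limit its arrival at the cell surface, ran the other way. It was at 0.526, 1.41 and 0.487 UMIs per 10000 in Nos1 neurons against 0.0412, 0.0741 and 0.0614 in neurons with none of the 3 genes, a log2 fold change of 4.81 (SE 0.24, edgeR adjusted p = 8.63e-08). In Edn3 neurons it gave 2, 2 and 4 UMIs and had a log2 fold change of -4.92 (SE 0.51, edgeR adjusted p = 4.21e-05). Nrn1, a neuritin of the same list, also rose in Nos1 neurons, with a log2 fold change of 1.65 (SE 0.09, edgeR adjusted p = 1.08e-10), and fell by 1.51 in Ddah1 neurons (SE 0.08, edgeR adjusted p = 1.24e-10). Glial-marker barcodes held 5.48 times as much Nrn1 as neurons by edgeR's fit, and 5 glial marker genes summed to 3.19, 2.29 and 1.90 UMIs per 10000 in Nos1 neurons against 4.41, 2.47 and 2.10 in those with none of the 3 genes.

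Lynx1, a membrane-anchored protein that dampens nicotinic responses, was at 0.797, 1.45 and 1.49 UMIs per 10000 in Edn3 neurons against 0.381, 0.515 and 0.479 in Nos1 neurons. Its log2 fold change was 0.98 in Edn3 (SE 0.07, edgeR adjusted p = 2.32e-08) and -0.89 in Nos1 neurons (SE 0.10, edgeR adjusted p = 1.48e-06). Ly6e was higher in Ddah1 (0.69, SE 0.09, edgeR adjusted p = 3.88e-06) and lower in Nos1 neurons (-0.60, SE 0.12, edgeR adjusted p = 0.00176). Ric3, a receptor chaperone, had nearly the same level in all libraries, 0.445, 0.462 and 0.459 UMIs per 10000. Of the 3 class contrasts it was called in that of Edn3 neurons, at a log2 fold change of 0.24 (SE 0.09, edgeR adjusted p = 0.0462). That class held 0.632 and 0.620 in the regional libraries, the highest there, but 0.430 in the mixed library, the lowest of the 4 classes.

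In all, 2 of the 7 tested genes of that list rose and 3 fell in Nos1 neurons, 2 rose and 1 fell in Ddah1 neurons, and 3 rose and 1 fell in Edn3 neurons. Of all genes, 8.23% were higher and 7.49% lower in the Nos1 contrast, 13.5% and 13.4% in that of Ddah1, and 18.3% and 13.0% in that of Edn3 neurons. Their median log2 fold change was -0.60, 0.17 and 0.24 in these contrasts, beside medians of -0.02, -0.00 and 0.00 over all genes tested. Of the 6 further subunit genes 0 could be tested. Calls on single genes of this list, and of the acetylcholine genes below, were not followed under the alternative settings.

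**Figure D5:**
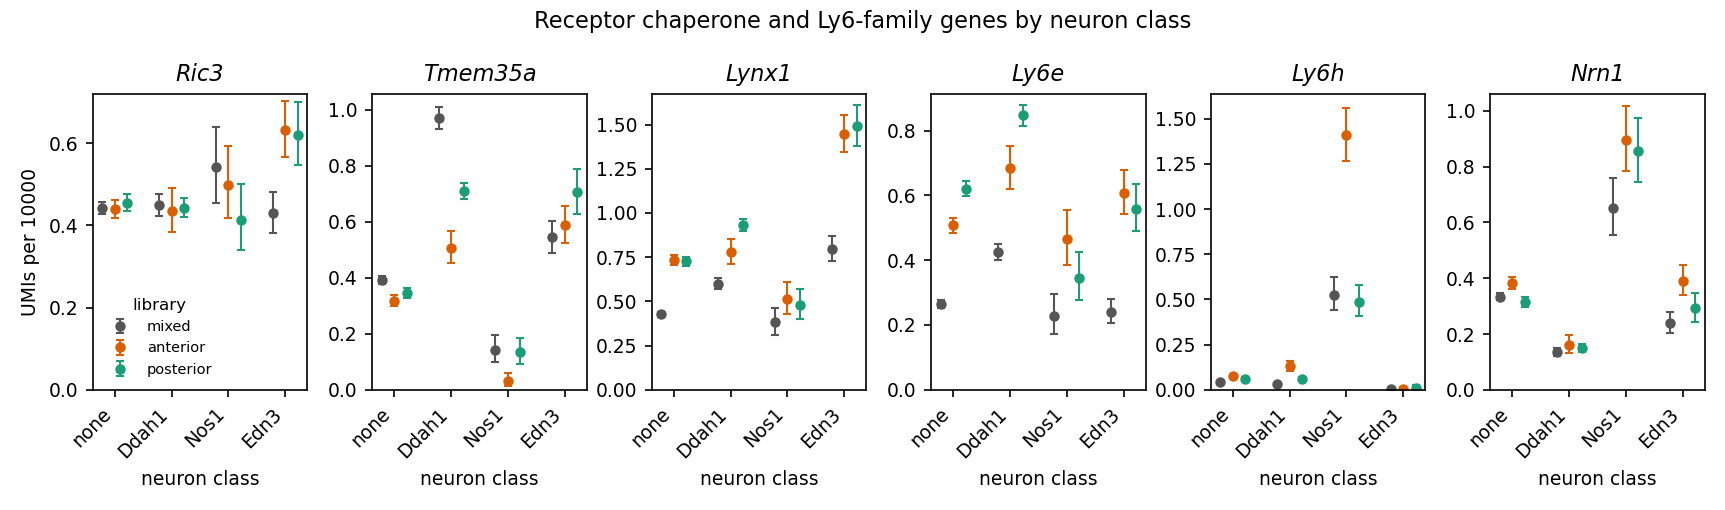
Levels of 6 genes, namely receptor chaperones, Ly6-family partners and Nrn1, in UMIs per 10000 on linear axes from 0, by neuron class and library, with 95% Poisson intervals. Tmem35a is lowest (0.0310 to 0.141) and Ly6h highest (0.487 to 1.41) in the Nos1 class, and Lynx1 is highest in Edn3 neurons.

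Genes that make, load and break down acetylcholine were all measurable, 7 of 7. Slc5a7, the choline transporter, stood at 8.38, 7.51 and 10.6 UMIs per 10000, Slc18a3, the vesicular acetylcholine transporter, at 4.62, 4.89 and 4.73, and Ache, acetylcholinesterase, at 2.33, 3.16 and 2.84. Chat, which makes acetylcholine, was lower at 0.378, 0.330 and 0.432. In Nos1 neurons 4 of the 7 fell and 0 rose, beside 7.49% of all genes lower and 8.23% higher. Colq, the collagen tail of acetylcholinesterase, fell by 1.12 on the log2 scale (SE 0.10, edgeR adjusted p = 1.15e-07). Slc5a7 fell by 0.58, Ache by 0.30 and Slc18a3 by 0.28, with edgeR adjusted p of 0.000541, 0.0203 and 0.0444. Slc18a3 was at 4.15, 3.345 and 4.73 UMIs per 10000 in Nos1 neurons. Ddah1 neurons held less of it in the mixed and posterior libraries, at 3.97 and 4.19. Ache was at 2.09, 2.69 and 2.65 in Nos1 neurons, above the 2.50 of Ddah1 neurons in the posterior library. In neurons with none of the 3 genes Slc18a3 was at 4.83, 4.88 and 4.96 and Ache at 2.31, 2.96 and 2.90.

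The same 4 genes were called higher in Edn3 neurons, beside 18.3% of all genes, and 0 of the 7 lower, beside 13.0%. There Colq had a log2 fold change of 1.13 (SE 0.07, edgeR adjusted p = 2.75e-09) and Ache one of 0.50 (SE 0.08, edgeR adjusted p = 0.000105). The other two were not higher in the mixed library: Slc5a7 was at 7.86, 9.34 and 14.5 UMIs per 10000 in Edn3 neurons against 7.93, 7.38 and 9.94 in those with none of the 3 genes. Slc18a3 was at 4.53, 5.90 and 6.34 against 4.83, 4.88 and 4.96. In Ddah1 neurons Prima1, the membrane anchor of acetylcholinesterase, rose by 0.60 (SE 0.08, edgeR adjusted p = 1.10e-05), and Bche, butyrylcholinesterase, fell by 1.18 (SE 0.15, edgeR adjusted p = 5.34e-06), a gene with 3.17 times the neuronal level in glial-marker barcodes. The 5 glial genes summed to 4.67, 2.23 and 2.38 UMIs per 10000 in Ddah1 neurons. The median of the 7 was -0.30 in Nos1, 0.32 in Edn3 and -0.14 in Ddah1 neurons. The Chat log2 fold change lay between -0.15 and 0.04 in the 3 contrasts and passed none of the tests.

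The patterns most like those of the 3 leading subunits were sought over the 12 sums, each centred on its library mean. For Chrna3 these were Cpeb2 (Pearson's r = 0.979), 9330182L06Rik (r = 0.977) and Lasp1 (r = 0.976), and for Chrnb4 they were Supt6 (r = 0.959), Dgcr2 (r = 0.953) and Grk3 (r = 0.952). For Chrna5 they were Aldh18a1 (r = 0.992), Vopp1 (r = 0.970) and Galnt5 (r = 0.967). Chrna3 and Chrnb4 had r = 0.858 with each other, rank 426 in the list for Chrna3. Chrna5 and Chrna7 ran opposite, at r = -0.886. With 12 sums of only 4 classes and 12024 genes these values describe likeness and carry no test.

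Anterior and posterior neurons differed little in their subunit messages. The ratio of the anterior to the posterior level was 0.980 for Chrna3 (0.958 to 1.00), 0.933 for Chrnb4 (0.895 to 0.974), 0.909 for Chrna5 (0.841 to 0.982), 0.930 for Chrnb2 (0.853 to 1.01) and 1.14 for Chrna7 (0.865 to 1.49). None of these 5 reached a 1.5-fold difference, a size that 8.83% of 14100 genes reached in either direction, 1.09% higher in anterior and 7.74% higher in posterior neurons. The median of all genes was a log2 ratio of -0.11, beside -0.10 for Chrnb4 and Chrnb2, -0.14 for Chrna5 and -0.03 for Chrna3. For Chrna7 the ratio was 0.725 (0.490 to 1.06) in the class with none of the 3 genes, 0.659 (0.241 to 1.75) in Edn3 and 1.32 (0.770 to 2.29) in Nos1 neurons, on both sides of 1. The makeup also differed: Nos1 neurons were 6.16% of anterior and 3.66% of posterior neurons, and Ddah1 neurons 11.3% and 36.4%. Class by class the values lay closer to 1 for Chrna3 in Nos1 neurons, 0.976 (0.874 to 1.09), than in Ddah1 neurons, 0.864 (0.812 to 0.919). Chrnb2 in Nos1 neurons was the furthest from 1 of the subunits with at least 20 UMIs in each region, at 0.593 (0.384 to 0.904), from 37 and 63 UMIs. With 1 library a region there is no replicate check, and age differs between them.

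Neurons were last compared with the other barcodes of the same libraries, to set the subunit levels against stray RNA. Barcodes outside the neuron gate joined the cell class of whose marker list they held the largest share. At least 3 markers and 1000 UMIs were needed, and ties were left unassigned. Those classed as glia, from a list of 7 markers, numbered 117, 196 and 218. In them Chrna3 was at 0.382, 0.534 and 0.407 UMIs per 10000 and Chrnb4 at 0.180, 0.150 and 0.167. Both lay below the neurons in each library. Chrna5 gave 1, 2 and 1 UMIs, Chrnb2 gave 1, 2 and 4, and Chrna7 gave none. The gate genes Snap25, Prph and Stmn2 together were at 17.2, 13.0 and 10.1 UMIs per 10000 there against 102, 98.1 and 92.0 in neurons, so neuronal RNA was present in the glial barcodes.

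By edgeR's quasi-likelihood test over 13749 genes, the 4 subunits with UMIs in glial barcodes were higher in neurons, beside 32.5% of all genes higher and 27.3% lower. The log2 fold change was 2.72 for Chrna3 (SE 0.21, edgeR adjusted p = 9.99e-36), 2.22 for Chrnb4 (SE 0.26, edgeR adjusted p = 5.82e-17), 3.74 for Chrna5 (SE 0.47, edgeR adjusted p = 1.74e-14) and 2.35 for Chrnb2 (SE 0.46, edgeR adjusted p = 7.88e-07). Chrna7 passed the filter through the neurons alone and is not counted. The glial barcodes hold 2003010 UMIs in all, and against the 3 counts that a 0 allows over the group, neurons were at least 1.02-fold higher. The edgeR adjusted p for Chrna7 was 0.0296, and from 0.0551 to 0.171 on leaving out any 1 library.

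Barcodes classed as cardiomyocytes by the same rule carried Chrna3 at 0.0335, 2.03 and 1.71 UMIs per 10000. They held the gate genes at 1.24, 42.2 and 23.1. The Chrna3 level was lowest where those neuronal genes were lowest, and the part of stray neuronal RNA or of 2 cells in 1 droplet in it was not tested. Barcodes outside the gate that joined no class numbered 395 in the mixed and 463 in the anterior library. They held Chrna3 at 1.20 and 3.29 UMIs per 10000, against 2.21 and 2.47 in the neurons, so the anterior ones lay above the neurons. Their gate genes were at 26.3 and 46.3, and what cells they hold was not tested.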

How the data were processed

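Single-cell 3′ RNA libraries (Chromium Single Cell 3′ kit, per the labels' protocols) were analysed from the deposited matrices of UMI counts per gene and barcode. The authors made these counts with Cell Ranger, version 3.1.0 for the mixed and 6.1.2 for the regional libraries per the file headers; the submitters' processing notes name Cell Ranger 7.1.0, Seurat 4.4.2 and mm10. How the authors filtered barcodes and doublets is not given in the sources used here; no doublet caller was run, and the 3% of neurons with the most UMIs were left out as an alternative. Library totals were 119825307, 55329380 and 86391988 UMIs.

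Levels are summed UMIs per 10000 with exact Poisson 95% intervals, and shares have Clopper-Pearson 95% intervals. Ratios have exact conditional Poisson intervals. All of them, and the 3-count limits, cover counting error only. Sums per library and class went through edgeR 4.0.16 in R 4.3.3 (filterByExpr, TMM, quasi-likelihood F test, library as block), with DESeq2 1.42.0 as an alternative; a gene was called at an adjusted p under 0.05. The library block rests on the classes of a library coming from the same cells' preparation. On counts simulated for the Nos1 contrast with 200 changed among 12024 genes, 29% of 1.5-fold and 78% of 2-fold changes were recovered, with 2 and 6 false calls. These counts came from the same mean profile in each library, with no library effect and the same dispersion for all genes. The recovery and the false calls hold for that setting only. Neuron thinning used 1 random seed.

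Named genes were all 10 subunits, the genes of the related lists with a level of at least 0.1 UMIs per 10000 or a call in a class contrast, and the 3 genes most alike for each of the 3 highest subunits; Chrna1, Chrna9, Chrna10, Chrnd, Chrne, Chrng and Malat1 are named beside them. The gene family, the lists and the classes were chosen with earlier results of these data known, although no measured value enters the rule that sets the members. Gene positions came from GENCODE (GRCm38) and start regions from RefSeq (GRCm38.p6).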

Additional observations from a re-analysis of the deposited data

Results flagged for a closer look

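The muscle-type subunit gene Chrnb1 gave a signal in barcodes outside the neurons. Barcodes classed by the marker rule above as fibroblasts, smooth muscle cells, macrophages, lymphocytes, endothelial or epithelial cells numbered 825 over the 3 libraries. In this pool 19 UMIs placed Chrnb1 at 0.0418 UMIs per 10000 (95% Poisson interval 0.0252 to 0.0653). Its level in neurons was 0.00137, 0.00116 and 0.00248, and the interval lies above the intervals of all 3. In those barcodes Chrna3 was at 0.183 and Chrnb4 at 0.0506, both under their neuronal levels. Endothelial-marker barcodes gave 3, 1 and 2 of these UMIs and fibroblast-marker barcodes 1, 2 and 5, while macrophage-marker barcodes gave none. The 78, 113 and 77 cardiomyocyte-marker barcodes, which are not in the pool, gave none either. The 531 glial barcodes held no Chrnb1 UMI, which allows up to 0.0150 UMIs per 10000.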

How the results depend on the processing

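Of 750 recomputed values over 20 alternative settings, 620 kept their side of the threshold or stayed within counting error (gene counts, within 1.5 times). Of the called values 0 turned direction. Signs changed in values that did not pass the test: Chrna3, Chrnb2 and Chrnb4 in Nos1 neurons (up to 0.01, down to -0.09 and up to 0.04), Chrnb2 in Ddah1 neurons (up to 0.07), and the anterior to posterior log2 ratio of Chrna3 (up to 0.03). Among 280 single subunit fold changes 32 fell below the threshold and 4 passed it. Without the replicate block (no term for the library), subunits called fell to 1 in Ddah1, 1 in Nos1 and 0 in Edn3 neurons, and genes called higher and lower to 366 and 474, 405 and 205, and 295 and 179. Against the sum of all other neurons Edn3 neurons had 1122 genes higher and 1016 lower, and against the class with none of the 3 genes 1116 higher, 860 lower and 1 subunit. Leaving out 1 library gave 788 to 2214 genes higher, 825 to 1823 lower and 2 to 3 subunits in Ddah1, 492 to 1143, 328 to 995 and 2 in Nos1, and 889 to 2487, 425 to 2520 and 0 to 3 in Edn3 neurons. Chrna3 and Chrnb4 were found together in 15.9%, 17.9% and 21.4% of neurons thinned to 5000 UMIs, in 89.5%, 84.1% and 88.1% without thinning, in 35.9% of mixed neurons with another seed, in 37.5% of anterior neurons above 20000 UMIs, in 44.7% of posterior neurons without glial markers, and in 37.1% of anterior and 36.0% of posterior neurons once the Malat1-richest neurons, 1 in 3, were left out. The cause of these shifts was not tested, other than the lower depth that thinning sets. Subunits other than the 5 tested were too sparse for any contrast.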
